A study of Rattus norvegicus with 24 samples.

Results

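A set of 8 genes of triglyceride breakdown were followed in the liver of female Sprague-Dawley rats: the lipases Pnpla3, Pnpla2, Mgll, Lipe, Lipa and Lipc, and Abhd5 and G0s2, whose proteins switch the Pnpla2 lipase on and off. They were taken by gene name from a table of FPKM (fragments mapped to a gene, corrected for gene length and for library size), and make up 8 of the 30957 gene rows used. The list was chosen by the FPKM of Pnpla3, known from these same libraries to be lower in rats given Lactobacillus reuteri, so the group values of Pnpla3 describe that choice and are no independent evidence of it. Liver RNA came from 3 groups of 8 rats, 1 library per rat. Control rats lived under 12 h of light and 12 h of darkness per day and received saline, darkness rats were kept without light for 8 weeks on saline, and DL.reuteri rats were kept without light for as long and had 100 mg of L. reuteri a day by gavage. All rats ate normal chow, were aged 6 weeks when housing began and 14 weeks when the livers were taken, and were fasted before they were killed. Several rats shared a cage and no label names the cage, so the p-values treat rats as independent. Constant darkness served as a model of circadian disruption with features of polycystic ovary syndrome, and no group received L. reuteri under the normal light cycle.

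Hepatocytes store triglyceride in lipid droplets and release its fatty acids in steps. Pnpla2 (adipose triglyceride lipase) takes the first fatty acid from triglyceride, Lipe (hormone-sensitive lipase) acts mainly on diglyceride, and Mgll (monoglyceride lipase) frees the last. Abhd5 (CGI-58) is the activator and G0s2 the inhibitor of Pnpla2. Lipa (lysosomal acid lipase) breaks down triglyceride and cholesterol esters inside lysosomes, and Lipc (hepatic lipase) is secreted and bound at the sinusoidal surface, where it acts on circulating lipoproteins. Pnpla3 (adiponutrin) is a lipid droplet protein related to Pnpla2 that can sequester Abhd5. In rodents and humans its transcript rises with feeding and insulin through SREBP-1c (Srebf1) and ChREBP (Mlxipl), the factors that drive fatty acid synthesis, and falls with fasting, unlike that of Pnpla2.

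Pnpla3 has a neighbour of the same family, Pnpla5, whose liver transcript varied with it from rat to rat. The sequences before the starts of both genes are therefore shown. They are the 250 bases upstream of each RefSeq gene start in the rat assembly GRCr8, written 5′ to 3′ along the gene, at chr7:117173278-117173527 (plus strand) for Pnpla3 and chr7:117137037-117137286 (minus strand) for Pnpla5. Capitals mark CCAAT read on either strand (ATTGG is CCAAT on the opposite strand).
Pnpla3: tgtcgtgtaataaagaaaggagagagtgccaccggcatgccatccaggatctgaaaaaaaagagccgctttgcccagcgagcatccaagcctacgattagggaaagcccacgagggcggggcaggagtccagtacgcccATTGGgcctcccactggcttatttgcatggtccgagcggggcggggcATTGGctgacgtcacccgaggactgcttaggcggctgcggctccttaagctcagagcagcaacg
Pnpla5: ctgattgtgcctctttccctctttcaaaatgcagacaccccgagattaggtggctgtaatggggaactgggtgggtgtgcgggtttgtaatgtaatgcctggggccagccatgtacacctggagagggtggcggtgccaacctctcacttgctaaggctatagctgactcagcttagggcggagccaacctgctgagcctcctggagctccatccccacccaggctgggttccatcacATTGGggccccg
The Pnpla3 window held 2 CCAAT matches, starting 111 and 64 bases before the gene start, and 2 matches of the GC box GGGCGG. The Pnpla5 window held 1 match of each. Of 33469 rat windows of this length, 34.0% held CCAAT and 30.5% held GGGCGG on either strand, so these letters are common. Neither window held the E-box CACGTG (5.59% of windows) or the sterol regulatory element TCACNCCAC (0.974% of windows). A search for these exact letters in 250 bases cannot show that SREBP-1c or ChREBP sites are absent. The window of Acly, listed below among the targets of both factors, also had 0 matches of either. Of the 8 genes, 7 had a window in the RefSeq table.

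The libraries were those of liver. The 8 hepatocyte markers were above 0 in every library, and albumin (Alb) alone reached 8028 FPKM in the lowest one. Sequencing depth is unknown, because the table holds no counts. Transcripts of the mitochondrial genome took between 12.4% and 85.0% of the FPKM of a library, and 1 library stood apart here: DL.reuteri 3 had the 85.0%, a mean log2(FPKM + 1) of the hepatocyte markers of 8.38 (10.38 or more in the other DL.reuteri libraries) and the lowest value of its group for Pnpla3, Abhd5, Lipa and Lipc. After rescaling to the FPKM outside the mitochondrial genome, only Lipc (46.0) of these was lowest there. Pnpla3 was then 4.45 in DL.reuteri 3 (lowest of the group 2.70) and Lipa 64.6 (lowest 51.2). Abhd5 was 29.0, the highest of the group. Adipocyte markers stood apart in 2 more libraries, control 8 and DL.reuteri 2, with a mean log2(FPKM + 1) of 4.41 and 3.55 against at most 1.99 in the other 22. Differences between groups were fitted by limma to log2(FPKM + 1) for the 12151 genes that reached 0.5 FPKM in 8 or more libraries, and a gene was called at a Benjamini-Hochberg adjusted p under 0.05. In whole liver, fewer cells of a type and less RNA per cell cannot be told apart.

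Pnpla3 spanned a wider range than any other of these genes. Its FPKM in control rats had a lowest value of 7.34, a median of 57.2 and a highest of 243. In darkness rats the lowest was 35.8, the median 82.5 and the highest 148. In DL.reuteri rats the lowest was 1.59, the median 6.90 and the highest 51.3. Thus 7 of 8 DL.reuteri rats lay below every darkness rat, and 4 of 8 lay below every control rat. The exception was DL.reuteri 4, at 51.3 FPKM, while the next highest rat of the group had 13.1. Darkness rats lay entirely inside the control range.

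The median of Pnpla3 was thus 11.9-fold higher in darkness and 8.28-fold higher in control rats than in DL.reuteri rats. On the log2(FPKM + 1) scale the difference between DL.reuteri and darkness rats was -3.14 (95% interval -4.32 to -1.95), and that between DL.reuteri and control rats was -2.83 (-4.02 to -1.65). Between darkness and control rats it was 0.31 (-0.88 to 1.49), an interval that includes 0. Of the 12151 genes, Pnpla3 had the most negative difference in both comparisons with DL.reuteri rats, which share these 8 libraries.

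Pnpla3 was the 1 gene of the list that was called, and it was called lower in both comparisons with DL.reuteri rats. Over all genes, 0.0576% were called lower in DL.reuteri than in darkness rats and 0.0988% in DL.reuteri than in control rats. Between darkness and control rats 0 genes of the list were called, as were 0% of all genes (limma, with 338 of 12151 at an unadjusted p under 0.05). Nothing is read from these shares, since Pnpla3 was picked for this difference. The adjusted p stood near the threshold, at 0.0323 against darkness and 0.0433 against control rats by limma. It rose above 0.05, so that the call was lost, in 11 of 24 fits that left out 1 library (highest 0.0967) for the first and in 16 of 24 (highest 0.109) for the second, while the log2 difference stayed between -3.53 and -2.91 and between -3.23 and -2.53. Without the library high in mitochondrial transcripts the differences were -2.91 and -2.60, without both adipocyte-rich libraries -3.00 and -2.83, and without all 3 of these libraries -2.70 and -2.53.

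**Figure D1:**
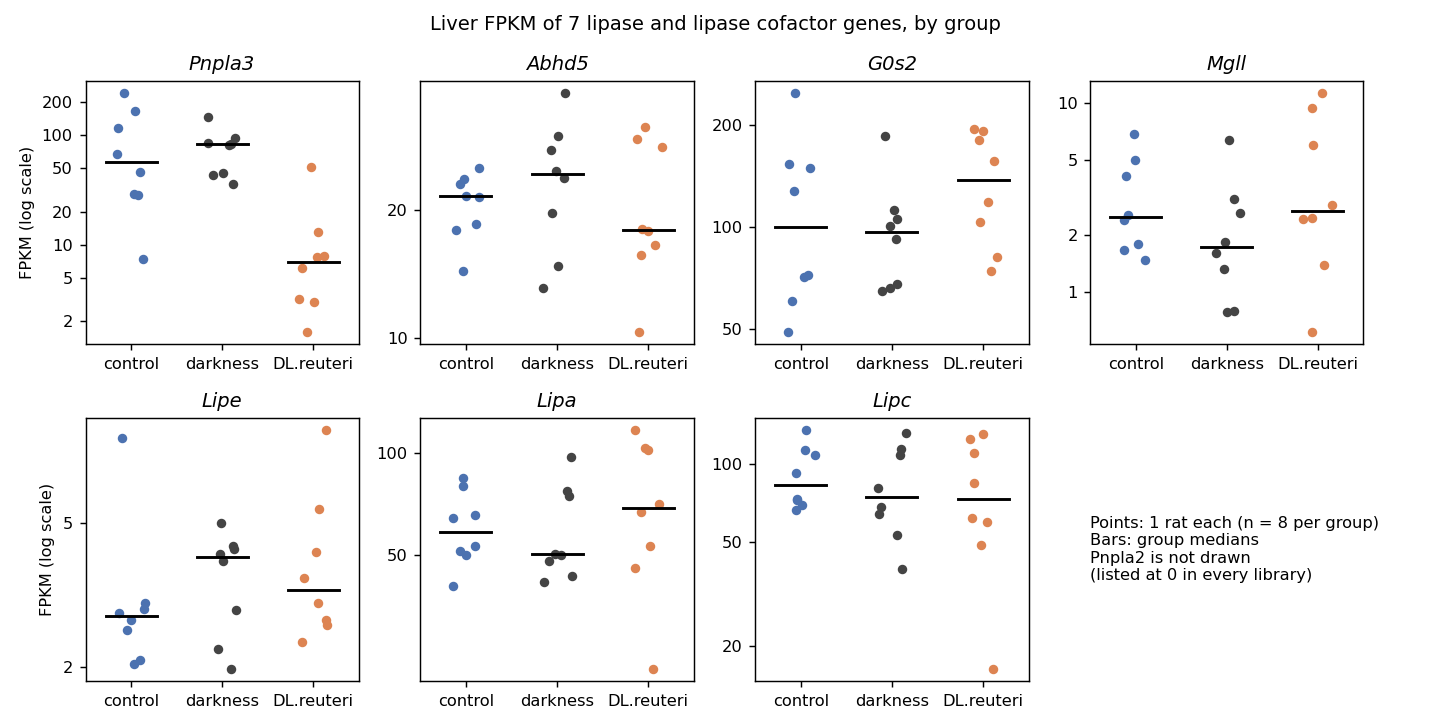
Liver FPKM (log axis, scaled separately in each panel) of the 7 genes above 0, by group. Each point is 1 rat (n = 8 per group) and each bar a group median. The Pnpla3 medians were 57.2, 82.5 and 6.90 FPKM, and only in that panel do most DL.reuteri rats lie below the darkness rats.

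Within control rats alone, Pnpla3 varied 33.1-fold from the lowest to the highest rat. The SD was 1.58 on the log2(FPKM + 1) scale, which is above 99.9% of the 10414 tested genes with a mean of at least 1 FPKM. Among darkness rats the SD was 0.68 and among DL.reuteri rats 1.34, against medians over these genes of 0.34 and 0.48. By its median FPKM, Pnpla3 stood above 90.7% of the genes in control, 93.7% in darkness and 52.2% in DL.reuteri rats. The next widest move on the list was that of Lipe, which stood above 26.4% of the genes in control, 39.1% in darkness and 28.8% in DL.reuteri rats.

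The row of Pnpla2, the main triglyceride lipase of the droplet, was listed at 0 in all 24 libraries. No level, difference or relation can be given for it, and a value of exactly 0 in a table without counts may be a failed estimate. What can be followed are its cofactors.

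Abhd5, the activator, had a median of 21.5 FPKM in control rats (14.4 to 25.1), 24.2 in darkness rats (13.1 to 37.5) and 17.9 in DL.reuteri rats (10.3 to 31.2). G0s2, the inhibitor, had a median of 99.8 FPKM in control rats (48.8 to 248), 96.2 in darkness rats (64.7 to 185) and 137 in DL.reuteri rats (74.1 to 194). The groups overlapped for both genes. The log2 difference of Abhd5 between DL.reuteri and darkness rats was -0.20 (95% interval -0.64 to 0.25), and that of G0s2 was 0.46 (-0.17 to 1.09).

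Between darkness and control rats the log2 difference was 0.15 (-0.30 to 0.59) for Abhd5 and -0.11 (-0.74 to 0.51) for G0s2. None of these passed the test. The log2 ratio of the inhibitor to the activator within a library, which no scaling between libraries can move, had a median of 2.16 in control (1.62 to 3.30), 2.07 in darkness (0.86 to 3.65) and 3.23 in DL.reuteri rats (1.40 to 3.63). The highest median was thus in DL.reuteri rats, with ranges that overlapped. G0s2 was the more abundant of the pair in every library.

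Mgll and Lipe, the lipases of the later steps, were the least abundant genes above 0. Mgll had a median of 2.48 FPKM in control rats (1.48 to 6.83), 1.72 in darkness rats (0.783 to 6.32) and 2.67 in DL.reuteri rats (0.612 to 11.3). Lipe had a median of 2.76 FPKM in control rats (2.03 to 8.57), 4.02 in darkness rats (1.97 to 5.01) and 3.26 in DL.reuteri rats (2.34 to 9.04). Neither gene separated the groups. The lowest Mgll of all, 0.612 FPKM, was that of DL.reuteri 4, the rat of its group with the most Pnpla3, and the highest, 11.3 FPKM, was that of DL.reuteri 2.

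For Mgll the log2 difference was -0.40 (95% interval -1.14 to 0.35) between darkness and control rats and 0.59 (-0.16 to 1.34) between DL.reuteri and darkness rats. The corresponding differences of Lipe were 0.15 (-0.32 to 0.62) and 0.10 (-0.37 to 0.57). The highest Lipe values, 8.57 and 9.04 FPKM, belonged to control 8 and DL.reuteri 2, the libraries with the highest mean of the adipocyte markers. Lipe is best known as an adipocyte lipase. Over 24 libraries, with group means removed, the Pearson correlation of Lipe with the score of the 7 adipocyte markers was r = 0.76 (Spearman's rho = 0.31, p = 0.115, adjusted p = 0.229), with a within-group permutation p of 0.0107 and an adjusted p over 6 relations of 0.0214. Without those 2 libraries r was -0.13, so the relation rests on them. Rescaled to the FPKM outside the mitochondrial genome, Lipe was 9.89 in control 8, 9.87 in DL.reuteri 3 and 8.12 in DL.reuteri 2. The adipocyte score of DL.reuteri 3 was 1.48.

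Lipa, the lysosomal lipase, had a median of 58.4 FPKM in control rats (40.4 to 84.2), 50.1 in darkness rats (41.5 to 96.8) and 68.5 in DL.reuteri rats (23.0 to 117). Lipc, the secreted lipase, had a median of 82.5 FPKM in control rats (66.2 to 135), 74.5 in darkness rats (39.6 to 131) and 72.9 in DL.reuteri rats (16.4 to 130). Both were abundant in all groups, and the groups overlapped. The lowest values, 23.0 and 16.4 FPKM, were those of DL.reuteri 3, the library with 85.0% mitochondrial transcripts.

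The log2 difference of Lipa was -0.044 (95% interval -0.59 to 0.50) between darkness and control rats and 0.18 (-0.37 to 0.72) between DL.reuteri and darkness rats. The first of these changed sign when libraries were rescaled to the 75th percentile, to 0.011. The log2 difference of Lipc was -0.20 (-0.86 to 0.47) and -0.17 (-0.84 to 0.49) in these comparisons, and the second was 0.11 without DL.reuteri 3. Neither gene was called.

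The ratio of both genes within a library varied less than either gene. The log2 ratio of Lipc to Lipa had a lowest value of 0.39, a median of 0.52 and a highest of 0.76 in control rats. In darkness rats these values were -0.28, 0.46 and 0.68, and in DL.reuteri rats -0.49, 0.14 and 0.27. Every DL.reuteri rat thus lay below every control rat, while darkness rats overlapped with both. This was 1 of 21 pairs among the 7 genes whose ratios did not overlap between DL.reuteri and control rats, and it was singled out after the values were seen. For comparison, the ratio to Lipc did not overlap between these groups for 0.414% of 10145 genes, and the ratio to Lipa for 0.72%. No pair of the list separated darkness from either other group. Between DL.reuteri and darkness rats, ratios to Pnpla3 did not overlap for 12% of the 10145 genes. Ratios to each other gene of the list did so for at most 0.148%. Between darkness and control rats the share was at most 0.0394% for any gene of the list. Nothing is therefore read from the absence of such pairs.

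**Figure D2:**
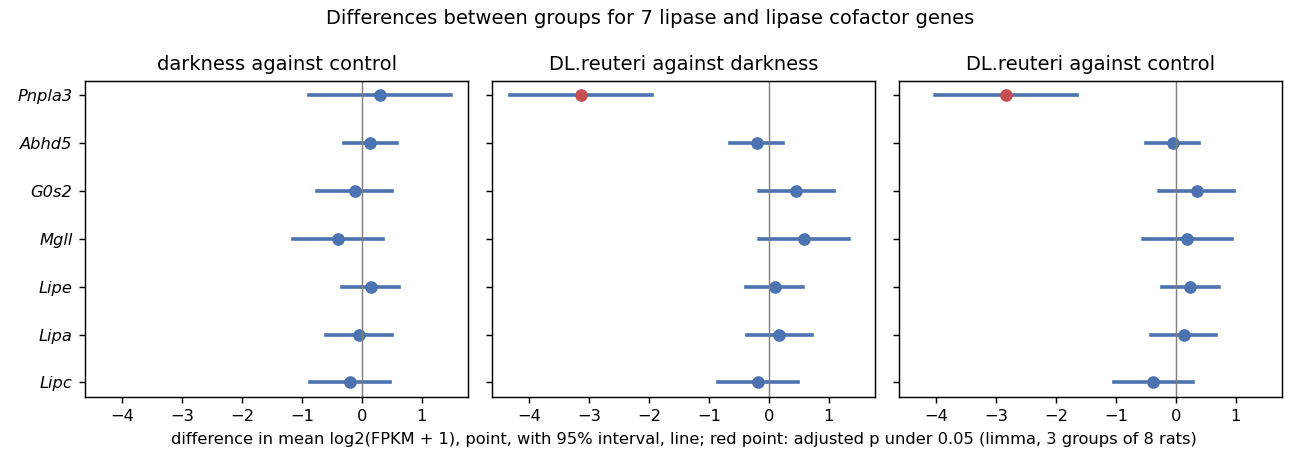
Difference in mean log2(FPKM + 1) for 7 genes in 3 comparisons (points, red where the adjusted p was under 0.05 by limma), with 95% intervals (lines). Pnpla3 lies at -3.14 and -2.83 in the comparisons with DL.reuteri rats, and every other interval includes 0.

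Apart from Pnpla3, all 18 differences of the 6 genes above 0 had intervals that include 0. A two-sided exact permutation test for each of them (8 against 8 rats) gave a lowest unadjusted p of 0.107 among these 18, where 0.000155 is the smallest the design allows. These intervals are wide: for Mgll in DL.reuteri against darkness rats they reach 1.34 on the log2 scale, and for Lipa 0.72. They do not show that the levels were equal.

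The order of the levels differed between groups at 1 gene. In control rats the medians fell from G0s2 over Lipc, Lipa, Pnpla3 and Abhd5 to Lipe and Mgll. Within single control libraries, G0s2 was above Lipc in 4 of 8, Lipa above Pnpla3 in 4 of 8 and Lipe above Mgll in 5 of 8, so these neighbours do not differ beyond their spread. Lipc was above Lipa, and Abhd5 above Lipe, in 8 of 8. In darkness rats Pnpla3 stood second, above Lipc in 4 of 8 libraries. In DL.reuteri rats it stood between Abhd5, which was above it in 7 of 8 libraries, and Lipe, which was below it in 5 of 8.

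The spread of Pnpla3 between rats of 1 group was not used in choosing it. With group means removed, Pnpla3 varied with Fasn (fatty acid synthase, a target of SREBP-1c and ChREBP) over the 24 libraries, with Pearson's r = 0.66 (within-group permutation p = 0.0029, adjusted p over 6 relations = 0.0087). Spearman's rho was 0.77 (permutation p = 6e-05, adjusted p = 0.00018). The correlation was 0.67 in control, 0.64 in darkness and 0.84 in DL.reuteri rats, and 0.66 without the 2 libraries with the most extreme Pnpla3, DL.reuteri 4 and control 6. The correlation was thus above 0 in each group, and no group was tested alone. In control rats it went with a split by replicate number. Control 1 to 4 had Fasn of 98.4 to 283 FPKM and Pnpla3 of 68.0 to 243. Control 5 to 8 had Fasn of 42.8 to 57.2 and Pnpla3 of 7.34 to 46.3. Control 4, with the most Fasn, had the least Pnpla3 of control 1 to 4. The cause of this split was not tested. The adjusted p was 0.0650 without control 8, DL.reuteri 2 and DL.reuteri 3 (r = 0.62).

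No such relation was found with the transcripts of the factors themselves. For Srebf1, which encodes SREBP-1c, r was 0.25 (permutation p = 0.308, adjusted p = 0.369) and Spearman's rho 0.25 (permutation p = 0.272, adjusted p = 0.289), with 0.64 in control, -0.13 in darkness and -0.49 in DL.reuteri rats. It was 0.18 without DL.reuteri 4 and control 6. The row of Srebf1 is 1 of 9 in the table written with at most 10 digits, against a median of 15 digits in other rows, and how it was made is not given in the sources used here. For Mlxipl, which encodes ChREBP, r was 0.15 (permutation p = 0.42, adjusted p = 0.42) and rho 0.22 (permutation p = 0.289, adjusted p = 0.289), and r was -0.059 without the same 2 libraries. Both factors act largely through cleavage, modification and isoform choice, which a gene FPKM does not show.

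**Figure D3:**
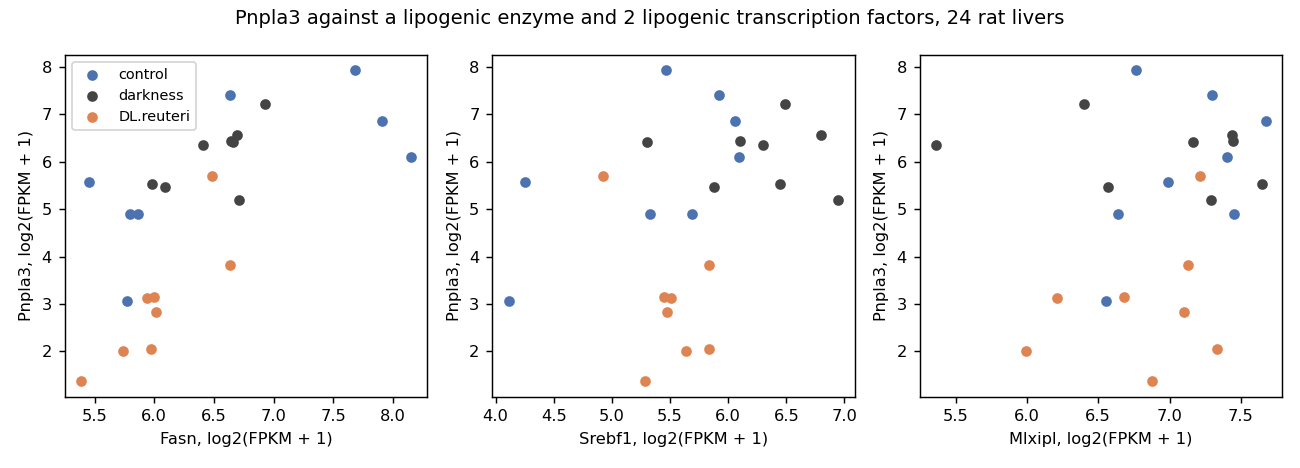
Pnpla3 (vertical axis) against Fasn, Srebf1 and Mlxipl (horizontal axes), all as log2(FPKM + 1), with 1 point per rat coloured by group. With group means removed, r was 0.66 for Fasn, 0.25 for Srebf1 and 0.15 for Mlxipl. The DL.reuteri points lie low on the Pnpla3 axis over nearly the same Mlxipl range as the other groups.

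Among 10414 genes, those most like Pnpla3 from rat to rat within groups were Sult4a1 (r = 0.88), G6pdx (0.86), Pnpla5 (0.78), Irs3 (0.77) and Fabp5 (0.76), over 24 libraries that share their scaling. In darkness rats alone these were 0.45, 0.83, 0.65, 0.62 and 0.41, in the same order. They were 0.80 to 0.95 in control and 0.67 to 0.94 in DL.reuteri rats. Sult4a1 was 8.72 FPKM in DL.reuteri 4 and at most 0.733 in the rest of that group. G6pdx encodes glucose-6-phosphate dehydrogenase, which makes NADPH for fatty acid synthesis, Irs3 is an insulin receptor substrate of rodents, Fabp5 binds fatty acids, and Sult4a1 is a sulfotransferase family member. Acly, which makes cytosolic acetyl-CoA, followed at rank 6 with r = 0.74, and Fasn stood at rank 13. The other genes of the list above 0 were not among the 5. Their r with Pnpla3 was 0.45 for G0s2, 0.16 for Abhd5, 0.023 for Lipc, 0.010 for Lipa, -0.18 for Lipe and -0.37 for Mgll. For Mgll r was -0.84 in control, 0.44 in darkness and -0.37 in DL.reuteri rats.

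These 5 genes had low medians in DL.reuteri rats, as Pnpla3 did. Sult4a1 had a median of 5.20 FPKM in control, 9.81 in darkness and 0.490 in DL.reuteri rats. Pnpla5 had 8.04, 11.5 and 1.504 FPKM, G6pdx 25.8, 33.5 and 13.1, Irs3 10.5, 8.77 and 2.40, and Fabp5 73.9, 57.0 and 18.8. Against darkness rats, limma gave log2 differences of -2.69 for Sult4a1 (adjusted p = 0.0323), -1.66 for Fabp5 and -1.40 for G6pdx (both adjusted p = 0.0428), -2.32 for Pnpla5 (adjusted p = 0.0551) and -1.21 for Irs3 (adjusted p = 0.0838). The first 3 were called and the other 2 were not. Against control rats, Fabp5 was the 1 gene of the 5 that was called (-1.83, adjusted p = 0.0335). Over all genes, 0.0576% were called lower in DL.reuteri than in darkness rats and 0.0988% lower than in control rats. Nothing is read from these calls, since the 5 were picked for their likeness to Pnpla3, itself picked for this difference.

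Sult4a1 and Pnpla5 are also the next protein-coding genes to Pnpla3 on one side in the RefSeq annotation of GRCr8, in the order Efcab6, Sult4a1, Pnpla5, Pnpla3, Samm50, Parvb and Parvg on chromosome 7. This was noticed after the likeness was computed. On the other side the likeness was lower: Samm50 (a mitochondrial outer membrane assembly protein) had r = 0.15, Parvb 0.34 and Parvg 0.17. Efcab6, beyond Sult4a1, had r = 0.63 at a mean of 0.0951 FPKM. Samm50 had a median of 22.0 FPKM in control, 18.8 in darkness and 18.9 in DL.reuteri rats. Pnpla5 and Pnpla3 are related in sequence, and how reads that match both were assigned is not given in the sources used here. The assignment of reads between neighbouring genes was not tested either.

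**Figure D4:**
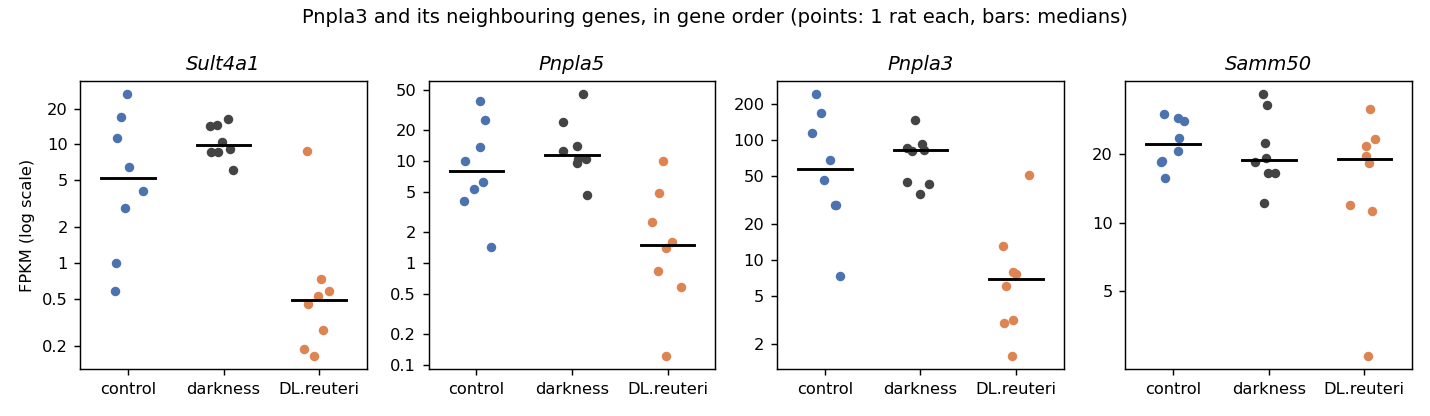
FPKM (log axis, scaled separately in each panel) of Sult4a1, Pnpla5, Pnpla3 and Samm50, drawn in gene order. Each point is 1 rat and each bar a group median. The medians of Sult4a1, Pnpla5 and Pnpla3 in DL.reuteri rats were 0.490, 1.504 and 6.90 FPKM, below those of both other groups, while Samm50 had 18.9.

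The other lipases were set against markers of the cells known to hold them. Lipc, which hepatocytes make, varied with the score of the 8 hepatocyte markers (r = 0.91, within-group permutation p = 1e-05, the smallest that 100000 permutations can give, adjusted p = 6e-05, and Spearman's rho = 0.91 with p = 1e-05, adjusted p = 6e-05). The correlation was 0.85 in control, 0.99 in darkness and 0.93 in DL.reuteri rats, and 0.90 without DL.reuteri 3 and 8, the libraries with the most extreme Lipc. It fell to 0.70 when libraries were rescaled to the FPKM outside the mitochondrial genome. The 3 libraries with Lipc under 50 FPKM (darkness 4, DL.reuteri 3 and DL.reuteri 4) had mitochondrial shares of 59.7%, 85.0% and 50.8%. Darkness rats were split by replicate number. Darkness 1 to 5 had Lipc of 39.6 to 80.6 FPKM and shares of 41.3% to 59.7%. Darkness 6 to 8 had Lipc of 107 to 131 FPKM and shares of 12.4% to 31.2%. Lipa was split likewise (41.5 to 50.3 against 74.6 to 96.8 FPKM) and Lipe the other way (3.93 to 5.01 against 1.97 to 2.88). The cause of this split was not tested. The part of the mitochondrial share in the Lipc values was not tested beyond that rescaling.

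Lipa is abundant in macrophages, and its correlation with the score of the 8 Kupffer cell markers was r = 0.47 (permutation p = 0.0903, adjusted p = 0.136) with rho = 0.31 (permutation p = 0.17, adjusted p = 0.255). It did not pass the test, and r was 0.042 without DL.reuteri 3 and DL.reuteri 8. In control rats r was 0.081.

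**Figure D5:**
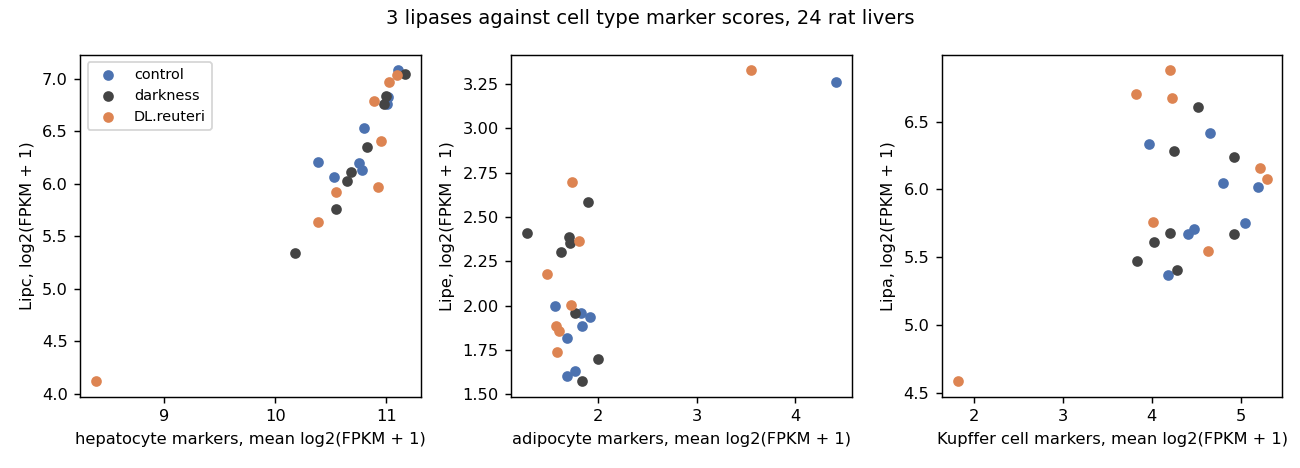
Lipc, Lipe and Lipa, as log2(FPKM + 1), against the mean log2(FPKM + 1) of hepatocyte, adipocyte and Kupffer cell markers, with 1 point per rat coloured by group. Lipc follows the hepatocyte score (r = 0.91), Lipe is highest in the 2 adipocyte-rich libraries, and the DL.reuteri library at the lower left of the hepatocyte and Kupffer cell panels is DL.reuteri 3.

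The wider set of genes around these lipases was described in 4 lists, and 0 genes of these lists were called in any comparison. Few genes were called at all. Of 12151 tested, 0 were called between darkness and control rats. DL.reuteri rats had 10 called against darkness and 17 against control rats. Nothing is therefore read from the 0 of the lists. Among 21 other lipases and carboxylesterases tested, 2 were higher and 2 lower in DL.reuteri than in darkness rats at an unadjusted p under 0.05, against 12.0% higher and 4.89% lower over all genes. Ces1d, a carboxylesterase of the endoplasmic reticulum that mobilizes stored triglyceride for VLDL, had median FPKM of 31.7 (control), 41.2 (darkness) and 52.6 (DL.reuteri) (log2 difference of DL.reuteri against darkness 0.45, 95% interval -0.40 to 1.29). Aadac (arylacetamide deacetylase), another esterase of that compartment, had medians of 54.4, 62.5 and 50.9 FPKM.

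Lpl (lipoprotein lipase), which normal adult liver makes in small amounts, had medians of 2.96, 2.80 and 3.41 FPKM, and its highest values were 24.9 in control and 40.0 in DL.reuteri rats. Lipg (endothelial lipase) did not pass the filter, with a highest value of 0.209 FPKM.

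Among 22 tested genes for proteins that bind or regulate lipases, 1 was higher and 1 lower in DL.reuteri than in darkness rats at an unadjusted p under 0.05, near or below the 12.0% higher and 4.89% lower over all genes. Plin2, the main droplet coat protein of hepatocytes, had median FPKM of 76.7 (control), 63.9 (darkness) and 81.2 (DL.reuteri), with a log2 difference of 0.51 (0.054 to 0.96, adjusted p = 0.240 by limma) for the last against darkness. Plin5, which docks Pnpla2 on droplets, had medians of 0.570, 0.444 and 0.615 FPKM. Hilpda, another inhibitor of Pnpla2, had 2.75, 3.53 and 3.61. Angptl4, an inhibitor of Lpl, had 83.9, 91.9 and 87.0, and Fabp1, the liver fatty acid binding protein, had 7607, 7754 and 6350. None of these passed the test.

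The next list held 21 tested genes, 18 for transcription factors and a coactivator with a role at lipase genes and 3 (Scap, Insig1 and Insig2) for membrane proteins that hold or escort SREBP in the endoplasmic reticulum. Of the 21, 4 (Foxo1, Hnf4a, Ppara and Insig2) were higher and 3 (Rxra, Srebf1 and Insig1) lower in DL.reuteri than in darkness rats at an unadjusted p under 0.05, against 12.0% higher and 4.89% lower over all genes. Without the 3 membrane proteins these counts were 3 and 2 of 18. Insig2 and Rxra are, like Srebf1, among the 9 rows written with at most 10 digits. Srebf1 had median FPKM of 46.8 (control), 82.1 (darkness) and 43.9 (DL.reuteri), with log2 differences of 0.92 for darkness against control (adjusted p = 0.9998 by limma) and -0.79 for DL.reuteri against darkness (adjusted p = 0.145). Mlxipl had medians of 141, 149 and 126 FPKM. Ppara, the fasting regulator of fatty acid oxidation, had 2.85, 1.65 and 4.005, and Foxo1, which raises Pnpla2 and lowers G0s2 transcription when insulin is low, had 1.85, 1.90 and 3.19.

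The fourth list held 20 tested targets of SREBP-1c and ChREBP. In DL.reuteri against darkness rats, 18 of 20 had a log2 difference below 0, with a median of -0.41 against 0.067 over all genes, and 7 were lower and 0 higher at an unadjusted p under 0.05, against 4.89% lower and 12.0% higher over all genes. Against control rats 17 of 20 were below 0, with a median of -0.41 against 0.0021 over all genes, and both comparisons share the DL.reuteri libraries. The list was chosen around Pnpla3 with earlier results of these data known, so these counts and medians are a description and no independent evidence. In darkness against control rats the median was 0.018 and 0 genes reached that p. Scd1, the main desaturase of the liver, had median FPKM of 306 (control), 251 (darkness) and 76.2 (DL.reuteri), with a log2 difference of -1.85 (-3.12 to -0.58, adjusted p = 0.132 by limma) against darkness. Fasn had medians of 77.8, 99.6 and 62.2 FPKM (-0.49, -1.17 to 0.19), Acly 80.6, 95.1 and 60.8 (-0.72, -1.28 to -0.16), Elovl6 12.7, 11.2 and 8.59 (-0.52, -1.25 to 0.20) and Thrsp 787, 767 and 631 (-0.29, -0.69 to 0.10). Each of these was smaller in size than the -3.14 of Pnpla3 in the same comparison. That was fixed in advance, since Pnpla3 was picked for this difference and had the most negative one of the 12151 genes.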

How the data were processed

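Reads were trimmed (Seqtk), mapped to the rat genome Rnor 6.0 (HISAT2 2.0.4) and summarised per gene (StringTie) by the authors, who deposited FPKM, and no scaling between libraries is stated. The table has 30958 rows, of which 1 repeated row at 0 was left out. FPKM hold no counts, so depth is unknown and precision is that of 8 rats. The genes and lists were chosen with earlier results of these data known. The 12151 genes that reached 0.5 FPKM in 8 or more libraries, 7 of the 8 among them, were compared on log2(FPKM + 1) by limma 3.58.1 (R 4.3.3), with a variance trend, 3 groups in 1 fit and no covariate. A linear model of log2(FPKM + 1) in 3 groups with the library term of Ballgown, the authors' software, was an alternative. Ballgown itself was not run. Others were pseudocounts of 0.1 and 0.01, other filters, 3 rescalings and array weights. Further ones were a block for the replicate number, an adipocyte covariate and fits without single libraries. Fold changes on this scale understate changes of low genes. A score is the mean log2(FPKM + 1) of markers. Relations used residuals from group means and 100000 permutations within groups (numpy 2.4.6), adjusted over the 6 that could be computed. Named were the 8 genes, any called gene of the 4 lists, a fixed set of well-known members of each list, and the 5 genes with the highest within-group r with Pnpla3. Of that fixed set, Scd had no row of its own name. Where 2 rows share a gene name, the one with the higher mean was used. The fits and relations were tested on simulated data.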

Additional observations from a re-analysis of the deposited data

Results flagged for a closer look

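Values of 1 rat stood far from the other 7 of its group for 5 of the 21 combinations of gene and group checked by Dixon's test on FPKM. Chance gives such a value in about 1 in 20 groups when values are normally distributed, and FPKM are skewed: on log2(FPKM + 1), a scale tried after seeing the data, only 1 of the 5, Lipe in control 8, stood as far apart. Pnpla3 was 51.3 FPKM in DL.reuteri 4, and 13.1 in the next rat. G0s2 was 185.0 FPKM in darkness 1, and 112 in the next rat. Mgll was 6.32 FPKM in darkness 6, and 3.09 in the next rat. Lipe was 8.57 FPKM in control 8, and 3.00 in the next rat, and it was 9.04 FPKM in DL.reuteri 2, and 5.48 in the next rat. The last 2 libraries are those with the highest mean of the adipocyte markers. Without DL.reuteri 4 the log2 difference of Pnpla3 between DL.reuteri and darkness rats was -3.53.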

How the results depend on the processing

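Pnpla3 stayed lower in DL.reuteri rats under all 15 alternatives and 24 fits without 1 library, and no other gene of the list was called in any of them. The count of genes called against darkness rats was 1 and fell to 0 with no filter on low FPKM, with the adipocyte covariate and without control 8 and DL.reuteri 2 (adjusted p of Pnpla3 0.0524, 0.0530 and 0.0917). Against control rats it was 1 and fell to 0 in these 3, with a pseudocount of 0.01, with only the 2 groups compared and without all 3 libraries that stand apart (control 8, DL.reuteri 2 and 3) (0.0732, 0.0539, 0.111, 0.0545, 0.128 and 0.0634). Without 1 library the count ranged from 0 to 1 in both, with adjusted p of 0.00352 to 0.0967 and 0.00957 to 0.109. It was lost against darkness rats without any 1 of darkness 2, 5, 6, 7 or 8 or DL.reuteri 1, 2, 5, 6, 7 or 8, and against control rats without any 1 of control 1, 2, 3, 4, 5, 7 or 8, darkness 2, 3, 4 or 8 or DL.reuteri 1, 2, 5, 6 or 8. The adjusted p depends on all genes: those called against darkness and control rats were 10 and 17 as reported, 1017 and 255 after rescaling to the FPKM outside the mitochondrial genome (which moved the median log2 difference of all genes to 0.17 and 0.13), 1987 and 1045 with array weights, 1220 and 251 without DL.reuteri 3, and 0 and 3 with the adipocyte covariate. The log2 difference of Pnpla3 under that rescaling was -3.03 and -2.70. With the Ballgown term, 854 and 575 genes were called. The causes were not tested.

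No label says whether replicate numbers pair the rats. The r of same-numbered libraries ranged from -0.39 to 0.60. Its median was 0.15 between darkness and control, 0.12 between DL.reuteri and darkness and -0.0092 between DL.reuteri and control rats. With the replicate number as a block the count was 0 in both comparisons with DL.reuteri rats (adjusted p of Pnpla3 0.0601 and 0.0681), and the relation of Pnpla3 with Fasn was r = 0.60 (adjusted p = 0.0812).

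Directions of small differences turned. For darkness against control rats, array weights gave -0.10 for Pnpla3 and -0.023 for Abhd5, Lipa was 0.011, 0.044 and 0.11 (75th percentile, median ratios, Ballgown term) and Lipc 0.012 (Ballgown term). For DL.reuteri against darkness rats, Lipa was -0.0057 (Ballgown term), Lipc 0.082, 0.11 and 0.042 (array weights, without DL.reuteri 3, without all 3) and Lipe -0.051, -0.056 and -0.068 (array weights, without both adipocyte-rich libraries, without all 3). For DL.reuteri against control rats, Abhd5 was 0.12 and 0.074 (FPKM outside the mitochondrial genome, without DL.reuteri 3) and Lipa -0.036 (without both adipocyte-rich libraries). Without 1 library, the darkness against control difference ranged from -0.092 to 0.60 for Pnpla3, -0.26 to 0.071 for G0s2 and -0.15 to 0.027 for Lipa, the DL.reuteri against darkness difference from -0.31 to 0.11 for Lipc and -0.056 to 0.17 for Lipe, and the DL.reuteri against control difference from -0.14 to 0.074 for Abhd5 and -0.013 to 0.41 for Mgll. The cause was not tested.

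The relation of Pnpla3 with Fasn was r = 0.62 (adjusted p = 0.0650) without all 3 libraries that stand apart. Lipe with adipocyte markers was -0.13 without both adipocyte-rich libraries and -0.12 without all 3, and 0.57 to 0.80 without 1 library (adjusted p = 0.169 without control 8 and 0.152 without DL.reuteri 2). Lipa with Kupffer cell markers was -0.25 (FPKM outside the mitochondrial genome), -0.011 (without DL.reuteri 3) and -0.048 (without all 3), and -0.011 to 0.53 without 1 library. Pnpla3 with Srebf1 was -0.018 to 0.44 without 1 library. The relations of Pnpla2 with G0s2 and Abhd5 were not run, since Pnpla2 is listed at 0.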
